A study of Mus musculus with 4 samples.

Results

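Titin and the proteins of the Z-disc and M-band hold the sarcomere together, and 9 of their genes are described here by the open chromatin at their starts, in their introns and upstream of them. The genes were Ttn, Actn2, Ldb3, Myoz2, Tcap, Csrp3, Nebl, Myom1 and Myom2, taken by name from GENCODE M21, and all 9 of 9 were found among 21728 protein-coding genes. The rule that names them uses no measured value. A peak belonged to a gene when it touched the gene body or the 20 kb upstream of the gene's 5' end.

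The data were ATAC-Seq libraries of nuclei sorted from whole hearts of male C57BL/6 mice of 8 to 12 weeks with the genotype NuTRAP/Cdh5-Cre, in which Cre under the Cdh5 (VE-cadherin) promoter turns on GFP in endothelial cells. Flow cytometry gave GFP+ (endothelial) and GFP- (non-endothelial) nuclei from animals of this genotype, and there were 2 libraries of each, made from 100 to 50000 nuclei. Nuclei were gated as single and not dividing by their DNA content, and the GFP- gate can hold cardiomyocytes, fibroblasts, mural cells and leukocytes. The deposited peaks form 1 list for each population, in which the replicates were pooled, so no value had a replicate error, no test between populations was possible and the depth of each library is not known from the lists.

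The question was whether chromatin at genes of the cardiomyocyte sarcomere was open in endothelial nuclei as well as in the remaining nuclei of the heart. In a Z-disc, alpha-actinin crosslinks the thin filaments of neighbouring sarcomeres, and a set of adaptor proteins binds to alpha-actinin and to the end of titin. Titin runs from there along the thick filament to the M-band, where the myomesins tie the thick filaments together. These proteins are hallmarks of striated muscle and are not part of the textbook repertoire of endothelial cells.

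Several sequences are shown first because the results below return to them. They are the RefSeq promoter windows (GRCm38.p6, 250 bases before to 50 after the start) of Ttn, Ldb3, Myoz2 and Myom1, each under a peak in both lists, and 201-base windows around the summits of intragenic or upstream peaks, read from the same assembly. Capitals mark the words that were searched on both strands. The MEF2 site and the CArG box, the site of serum response factor, were searched as degenerate consensus sequences of 10 bases. The word for factors of the GATA family, which act in heart development, was AGATAA. For the TEAD family, known from muscle gene enhancers, it was CATTCC. The E-box, the kind of site read by basic helix-loop-helix factors, was searched as CAGCTG. For the ETS family, prominent in endothelial cells, the word was GGAAGT. Neighbouring words can share bases at their ends, for example the TEAD word with a CArG box. Every window is printed in the direction of its gene, and its coordinates are those of the plus strand.
Ttn promoter, chr2:76982498-76982797, minus strand: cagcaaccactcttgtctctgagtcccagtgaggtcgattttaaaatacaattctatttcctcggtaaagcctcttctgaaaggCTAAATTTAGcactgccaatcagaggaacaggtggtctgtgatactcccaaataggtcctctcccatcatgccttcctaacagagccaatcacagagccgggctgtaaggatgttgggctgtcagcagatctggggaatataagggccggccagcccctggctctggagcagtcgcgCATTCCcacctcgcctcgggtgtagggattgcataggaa
Ldb3 promoter, chr14:34588632-34588931, minus strand: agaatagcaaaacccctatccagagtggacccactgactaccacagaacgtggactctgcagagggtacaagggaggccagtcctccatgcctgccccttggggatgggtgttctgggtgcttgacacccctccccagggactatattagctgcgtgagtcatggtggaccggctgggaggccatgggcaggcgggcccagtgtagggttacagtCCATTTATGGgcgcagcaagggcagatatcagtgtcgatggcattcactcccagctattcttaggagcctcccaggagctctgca
Myoz2 promoter, chr3:123034938-123035237, minus strand: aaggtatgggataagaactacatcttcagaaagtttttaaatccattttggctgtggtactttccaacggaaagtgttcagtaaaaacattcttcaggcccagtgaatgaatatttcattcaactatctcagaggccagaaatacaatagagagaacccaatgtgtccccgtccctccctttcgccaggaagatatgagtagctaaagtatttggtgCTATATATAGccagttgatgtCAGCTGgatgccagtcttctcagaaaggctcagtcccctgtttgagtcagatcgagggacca
Myom1 promoter, chr17:71019307-71019606, plus strand: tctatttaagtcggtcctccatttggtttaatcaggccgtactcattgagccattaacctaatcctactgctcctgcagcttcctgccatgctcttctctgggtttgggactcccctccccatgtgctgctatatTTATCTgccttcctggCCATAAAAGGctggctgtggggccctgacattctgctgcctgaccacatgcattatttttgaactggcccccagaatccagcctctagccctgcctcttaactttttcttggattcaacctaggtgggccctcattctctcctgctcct
Ttn, 16.0 kb upstream, chr2:76998446-76998646: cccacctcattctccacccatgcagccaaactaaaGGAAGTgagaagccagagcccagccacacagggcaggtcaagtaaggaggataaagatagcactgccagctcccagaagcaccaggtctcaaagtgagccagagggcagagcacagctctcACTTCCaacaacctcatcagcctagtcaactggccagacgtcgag
Ttn, 12.1 kb inside, chr2:76970315-76970515: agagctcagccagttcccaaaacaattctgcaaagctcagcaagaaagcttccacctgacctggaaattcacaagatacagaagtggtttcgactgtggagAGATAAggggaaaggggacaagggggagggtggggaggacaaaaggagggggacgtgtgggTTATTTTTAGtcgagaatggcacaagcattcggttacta
Ttn, 175 kb inside, chr2:76807437-76807637: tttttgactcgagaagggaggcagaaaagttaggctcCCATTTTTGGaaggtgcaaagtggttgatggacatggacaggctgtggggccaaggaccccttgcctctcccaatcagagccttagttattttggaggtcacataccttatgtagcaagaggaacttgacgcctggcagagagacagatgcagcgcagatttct
Ttn, 176 kb inside, chr2:76806462-76806662: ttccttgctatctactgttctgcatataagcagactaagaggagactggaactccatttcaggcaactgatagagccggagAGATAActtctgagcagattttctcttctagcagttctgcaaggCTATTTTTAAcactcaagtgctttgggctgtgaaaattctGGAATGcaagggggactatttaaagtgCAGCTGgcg
Ldb3, 43.9 kb inside, chr14:34544668-34544868: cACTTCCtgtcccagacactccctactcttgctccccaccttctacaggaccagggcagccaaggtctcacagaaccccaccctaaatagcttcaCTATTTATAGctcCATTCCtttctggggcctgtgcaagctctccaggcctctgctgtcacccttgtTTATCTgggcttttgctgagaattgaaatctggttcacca
Myom1, 8.90 kb upstream, chr17:70993629-70993829: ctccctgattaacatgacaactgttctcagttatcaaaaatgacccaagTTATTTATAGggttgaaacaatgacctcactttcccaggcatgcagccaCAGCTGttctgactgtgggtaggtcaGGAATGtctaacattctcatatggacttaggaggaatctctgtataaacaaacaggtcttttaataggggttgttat

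The GFP- list held 78912 peaks over 52.1 Mb and the GFP+ list 65008 peaks over 41.8 Mb. Peak size is given as the area deposited for each peak, a signal summed along the peak by the authors' caller. Because the lists were called separately, peaks are compared by percentile rank, from 0 for the smallest area of a list to 100 for the largest. At the markers, Cdh5 itself had start ranks of 18.0 in GFP- and 85.3 in GFP+. Start peaks were found for 5 of 10 endothelial genes in GFP- and 8 in GFP+. Counting a missing peak as rank 0, 7 endothelial genes ranked higher in GFP+ and 1, Tek, ranked lower (81.1 in GFP- and 54.1 in GFP+). Pecam1 and Erg had no start peak in either list. Of 8 fibroblast genes, 6 had a start peak in GFP- and 0 in GFP+. For 12 cardiomyocyte genes outside the sarcomere, start peaks were found for 9 in GFP- and 8 in GFP+, at a median rank difference of 1.13 points lower in GFP+. The part that cardiomyocyte nuclei in the GFP+ gate could have in the values below was not tested. In pooled nuclei, a site open in more nuclei and a site more open in each nucleus cannot be told apart.

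All 9 genes had a peak at the start, within 250 bp of the 5' end of the gene, in both lists. Among all protein-coding genes, 56.9% had a start peak in the GFP- list, 54.8% had it in the GFP+ list, and 94.5% of those with a GFP- start peak had a GFP+ start peak too. The median rank of the start peak over the 9 genes was 86.1 in GFP- and 91.2 in GFP+, beside 90.2 and 88.5 over all genes with a start peak. The GFP+ median is the start peak of Ttn, which was cut differently in the lists. Merged over both lists, the Ttn start had ranks of 91.7 in GFP- and 90.6 in GFP+, so the higher median is not a rise of the group. Of the 9 genes, 6 ranked lower in GFP+ and 3 higher, beside 9001 lower and 3576 higher of 12577 genes. Ranks of the 9 genes spanned 46.6 to 99.8 in GFP- and 46.4 to 99.9 in GFP+. This spread was wider than the largest difference of a gene between the lists, 8.44 points for Ttn by area where the gene records begin. Under other definitions, Myom1 at its RefSeq start was 9.76 points lower in GFP+. By area per bp, Myoz2 was 37.9 points higher in GFP+.

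**Figure D1:**
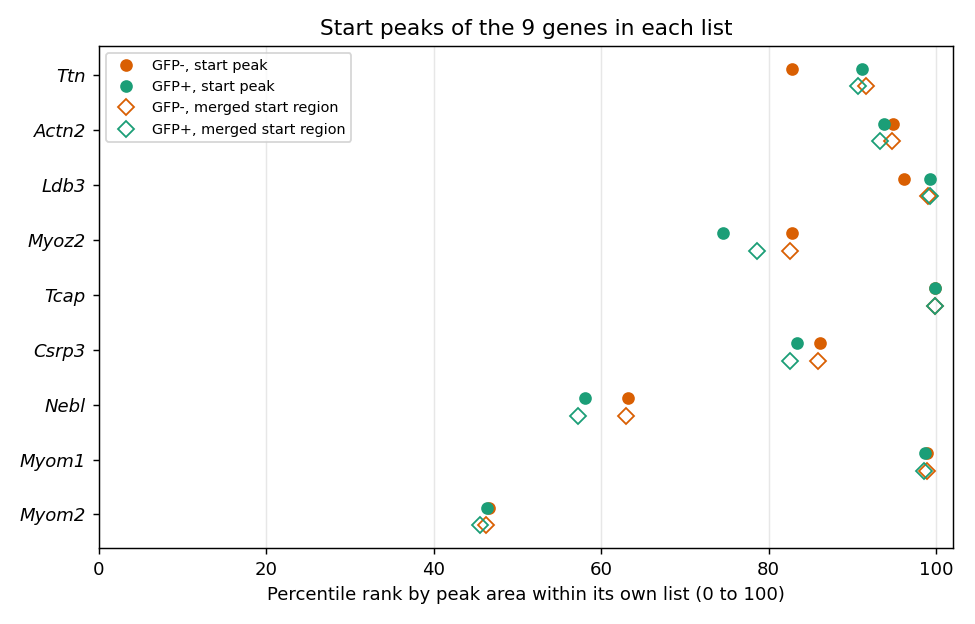
Percentile rank (by area) of the start peak of each gene (filled circles) and of the start region after merging the peaks of both lists (open diamonds), in GFP- (orange) and GFP+ (green) nuclei. Tcap and Myom1 lie near 100 and Myom2 near 46 in both lists, and the gap between the circles of Ttn closes for the diamonds.

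Ttn encodes titin, the giant filament that spans from Z-disc to M-band (chr2:76703980-76982547, minus strand). Its start peak had rank 82.7 in GFP- and 91.2 in GFP+, the only rise of more than 5 points among the 9 genes. The start region was cut differently in the lists, as peaks of 740 bp and 444 bp in GFP- and as a single peak of 1287 bp in GFP+. After merging overlapping peaks of both lists into regions and summing the areas, the ranks were 91.7 in GFP- and 90.6 in GFP+, so that the rise was not seen on equal bases.

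Ldb3, which encodes the PDZ and LIM domain protein ZASP of the Z-disc (chr14, minus strand), had start ranks of 96.1 and 99.2 in GFP- and GFP+. Here too, GFP- peaks of 2245 bp and 2678 bp were joined in a GFP+ peak of 4367 bp, and the merged region had ranks of 99.0 and 99.2. Actn2, the gene of alpha-actinin 2, had ranks of 94.9 and 93.7 on peaks of 1912 bp and 1914 bp. By area, neither gene differed between the lists by more than 5 points, but by area per bp Ldb3 had a difference of -11.6 and Actn2 of -7.41 points, GFP+ minus GFP-.

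Tcap, the gene of telethonin, which caps the end of titin in the Z-disc (chr11, plus strand), had the highest start peak of the group at 99.8 in GFP- and 99.9 in GFP+. Its peak was position 128 of the GFP- list and position 68 of the GFP+ list. With 4037 bp and 4469 bp, it was longer than the gene and also covered the start of Pnmt, so its area is not that of Tcap alone. Myom1, the gene of myomesin 1, had ranks of 98.9 and 98.7 where its gene record begins, but this peak also lies at annotated starts of Myl12a and Myl12b. At the RefSeq start of Myom1, 16.9 kb further inside, the ranks were 83.6 in GFP- and 73.8 in GFP+, a value 9.76 points lower in GFP+. The GFP- peak there, of 1127 bp, faced GFP+ peaks of 522 bp and 268 bp, and the merged region had ranks of 83.3 and 76.8.

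Myoz2, which encodes the calcineurin-binding protein calsarcin-1, had start ranks of 82.8 in GFP- and 74.5 in GFP+, or 8.27 points lower. A GFP- peak of 1360 bp faced GFP+ peaks of 405 bp and 414 bp, and over the merged region the ranks were 82.5 and 78.7. Csrp3, the gene of muscle LIM protein, had ranks of 86.1 and 83.3. Nebl, the gene of nebulette, had ranks of 63.2 and 58.1 where its gene record begins, and 62.9 and 57.2 over the merged region there. Its 28-exon transcript Nebl-202 starts 271 kb further inside, where the ranks were 51.0 in GFP- and 46.6 in GFP+. Myom2, which encodes the M-band component M-protein, had the lowest start ranks of the group at 46.6 and 46.4, yet its largest peaks lay at a start annotated 1.32 kb further inside, at 89.5 in GFP- and 85.4 in GFP+.

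Counted over the group, 6 of 9 start peaks lay within 5 points between the lists, 2 were lower in GFP+ by more than 5 points (Myoz2 and Nebl) and Ttn was higher. Taking Myom1 at its RefSeq start instead gave 5 within 5 points and 3 lower. Nebl is counted where its gene record begins, and at the start of Nebl-202 the merged region was 4.95 points lower in GFP+. Ranked by area per bp, only 3 of 9 lay within 5 points, with 3 lower and 3 higher. Of all genes with start peaks in both lists, 80.7% lay within 5 points and 15.1% were lower by more than 5. The median difference was 0.279 points lower in GFP+ for the 9 genes and 0.833 lower for all genes. On merged start regions, the medians were 1.01 and 1.10 points lower, and all 9 genes, taken where their gene records begin, lay within 6 points.

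Beyond the starts, the genes differed widely in how much of the body was open. Tcap, of only 1.14 kb, was covered to 100% in both lists. Ldb3 was covered to 44.6% in GFP- and 34.8% in GFP+, Csrp3 to 39.5% and 26.4%, and Actn2 to 19.9% and 15.2%. In the long genes the share was small, with 6.34% and 4.77% for Ttn, 7.60% and 5.76% for Myom1, 9.92% and 6.49% for Myom2, and 0.479% and 0.447% for Nebl. Myoz2 had 5.52% and 2.94%, from its start region and a peak in intron 3.

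Coverage was lower in GFP+ for 8 of 9 genes and equal for Tcap, with a ratio of GFP+ to GFP- bases between 0.533 (Myoz2) and 1 (Tcap). The GFP+ list as a whole also covered less, 41.8 Mb beside 52.1 Mb in GFP-. The share of all genes with lower coverage in GFP+ was not counted, so the 8 of 9 is not a trait of this group. In each list, 3 of the genes (Tcap, Ldb3 and Csrp3) reached 20% of the body, beside 9.41% of all genes in GFP- and 8.16% in GFP+. The median over the 9 genes was 9.92% in GFP- and 6.49% in GFP+, and over all genes 2.41% and 1.93%. These values over all genes include 9151 genes without a start peak in either list, whereas each of the 9 genes had one in both. Most bases open in GFP+ were open in GFP- too, with a median of 94.1% per gene, whereas a median of 64.7% of the GFP- bases were also open in GFP+. The same medians over all genes were 93.8% and 81.1%. The summed area of a gene's peaks, taken as a share of the list's total, had a median ratio of GFP+ to GFP- of 0.997 over the group, with a range from 0.865 to 1.18, beside 1.09 over all genes.

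**Figure D2:**
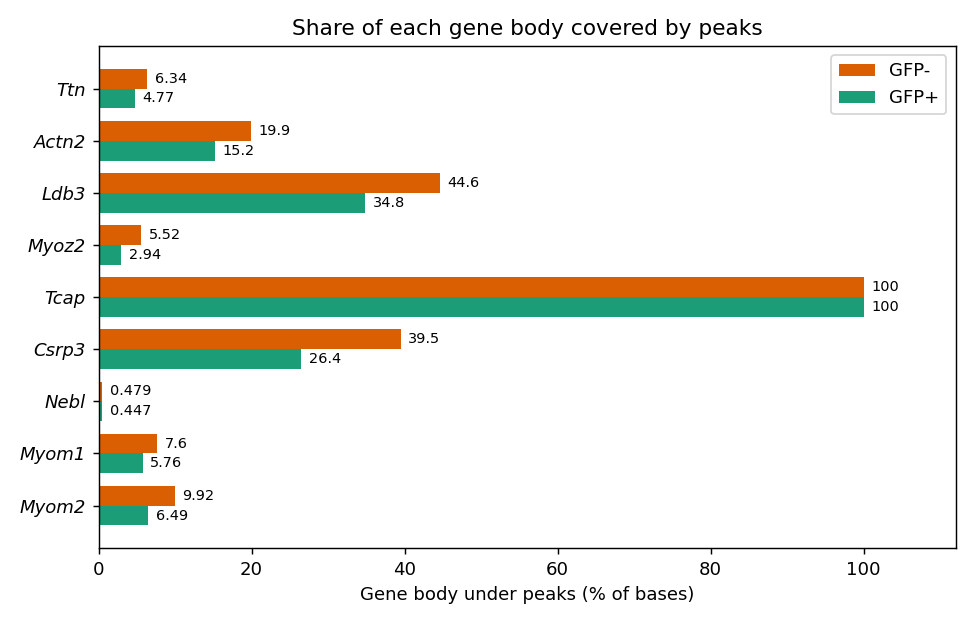
Percentage of the bases of each gene body that lay under a peak in GFP- (orange) and GFP+ (green) nuclei, each bar being 1 pooled list. Ldb3, Csrp3 and Tcap exceed 20% in both lists, and the GFP+ bar is shorter for every gene except Tcap.

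In all, 136 GFP- peaks lay at the 9 genes, of which 9 were at starts, 83 in introns, 19 on exons and 25 upstream, and 119 GFP+ peaks, of which 9 were at starts, 74 in introns, 12 on exons and 24 upstream. Of the GFP- peaks, 104 (76.5%, Wilson 95% interval 68.7 to 82.8) shared 1 bp or more with a GFP+ peak, beside 72.9% of GFP- peaks at all protein-coding genes. Of the GFP+ peaks, 110 (92.4%, 86.2 to 96.0) overlapped a GFP- peak, beside 87.6% at all genes. These intervals cover counting error only, and peaks of the same gene are not independent. Of the peaks named below, those that are neither at an annotated start, nor the largest of their gene, nor among the 3 largest without overlap in a list were chosen after their values were seen.

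Of the exonic peaks, 42.1% (23.1 to 63.7) overlapped in GFP- and 66.7% (39.1 to 86.2) in GFP+. Intronic peaks overlapped in 79.5% (69.6 to 86.8) and 93.2% (85.1 to 97.1) of cases, and upstream peaks in 84.0% (65.3 to 93.6) and 100% (86.2 to 100). Ttn alone held 10 of the 19 exonic GFP- peaks, and these shares by place were not set beside those of all genes. Where peaks overlapped, their summits were close, with a median gap of 17 bp from GFP- and 20 bp from GFP+. Within 50 bp were 76 of the 104 overlapping GFP- peaks and 76 of the 110 overlapping GFP+ peaks. Over overlapping peaks at all genes, the gap was 18 bp and 19 bp, and 76.1% and 74.2% lay within 50 bp.

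After merging the peaks of both lists, the 9 genes held 139 regions. Of these, 98 (70.5%) had a peak in both lists, 32 (23.0%) in the GFP- list alone and 9 (6.47%) in the GFP+ list alone. The smallest area was 200 in each list. A region without a peak in a list can thus hold signal below that cutoff, which was not tested. Over all 86649 regions, the shares were 62.3%, 27.6% and 10.1%. This wider set, also used in the next sentence, includes regions away from genes, so it does not match the 139 in place. Of the 98, 27 ranked higher and 71 (72.4%) lower in GFP+, beside 67.9% lower over all shared regions, with a median difference of 2.74 points lower, beside 2.18 lower over all regions of the lists. Regions inside the genes differed by a median of 3.08 points, and those upstream by 2.23.

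**Figure D3:**
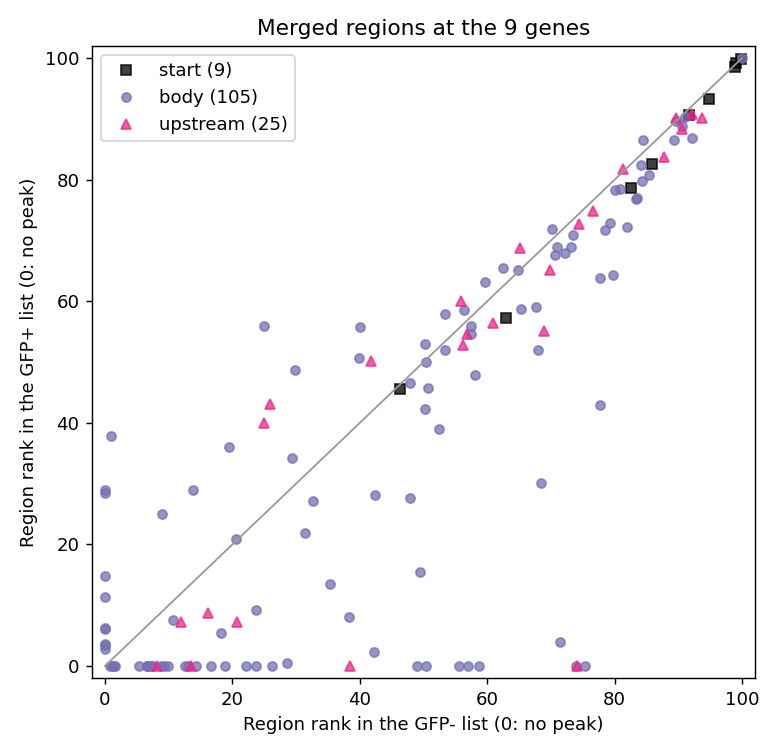
Rank by summed area of the 139 merged regions in the GFP- list (horizontal axis) and the GFP+ list (vertical axis), by place (start, gene body or upstream), with rank 0 where a list had no peak. Of the 98 regions with a peak in both lists, 71 lie below the diagonal and 27 above it, some of them far from it. A further 32 regions lie on the horizontal axis and 9 on the vertical axis.

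At Ttn, 31 GFP- and 24 GFP+ peaks were found, 20 of each overlapping. An upstream peak 16.0 kb before the start had nearly the same edges in both lists, chr2:76998335-76998879 in GFP- and chr2:76998334-76998879 in GFP+, and ranks of 81.5 and 82.5. Its printed window holds the ETS word on both strands and none of the other words. An intronic peak 12.1 kb inside, in intron 6, had ranks of 79.6 and 68.3, or 79.3 and 72.8 on its merged region, with summits 4 bp apart, and its window carries a MEF2 site and a GATA word.

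Deep inside Ttn, about 175 kb from the start, an adjacent pair of intronic peaks was found in both lists. The nearer peak, in intron 188 of transcript Ttn-205, had ranks of 72.5 in GFP- and 68.9 in GFP+ and summits 1 bp apart, over a CArG box. The further peak, in intron 189, had ranks of 67.9 and 60.1, and its GFP- window carries a MEF2 site with a GATA, a TEAD and an E-box word. GENCODE M21 has no transcript start at either peak. As background, Ttn is known to have an internal promoter that gives the shorter titin Cronos.

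Peaks at other annotated starts of Ttn lay 2.37 kb inside, with ranks of 73.8 and 71.8, and near 93 kb, with ranks of 68.2 and 45.3, or 77.6 and 63.8 on the merged region, which was cut differently in the lists. Another peak, 83.4 kb inside, was 1895 bp long with rank 71.8 in GFP- but faced a GFP+ peak of 476 bp with rank 4.1. All 11 GFP- peaks of Ttn without a GFP+ partner ranked under 30, with a maximum of 26.5, as did its 4 GFP+ peaks without a partner. The largest of those 4 lay 106 kb inside, on exon 95, with rank 29.1.

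**Figure D4:**
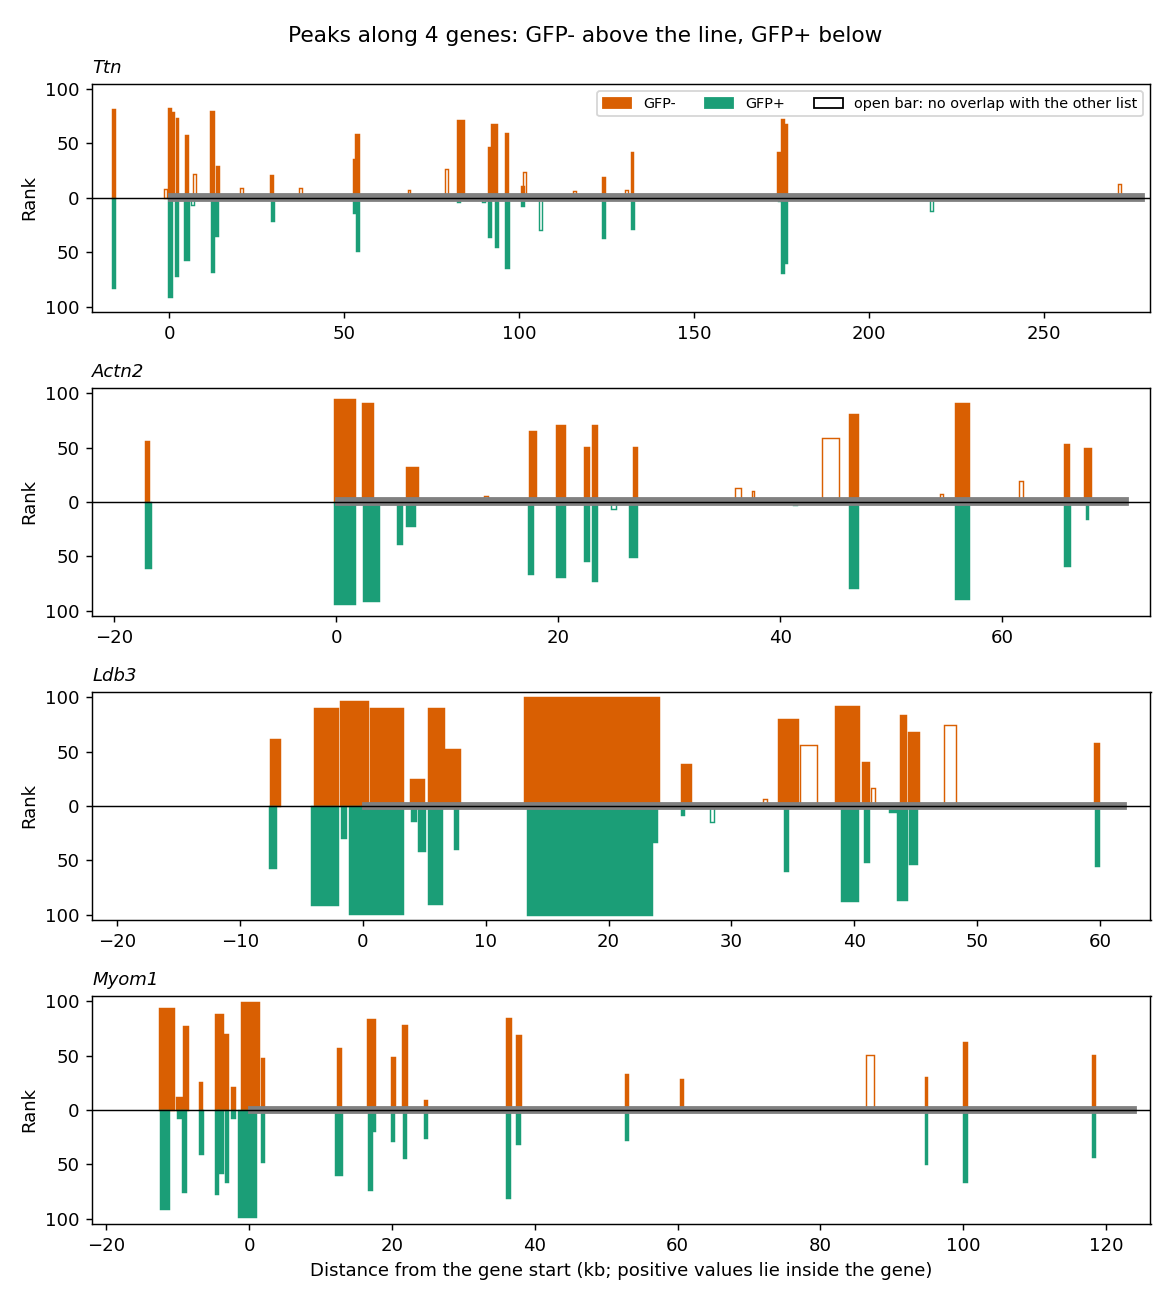
Peaks of Ttn, Actn2, Ldb3 and Myom1 against distance from the gene start in kb, with rank by area as bar height, GFP- above and GFP+ below the line, the gene body as a grey band and very narrow peaks drawn at a minimum width. Open bars, which have no overlap with the other list, are mostly low, and the broad block of Ldb3 stands near rank 100 on both sides.

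Actn2 had 22 GFP- and 16 GFP+ peaks, 14 of each overlapping. A string of intronic peaks was shared at nearly equal ranks, of which the highest lay 2.69 kb inside in intron 1 (91.2 and 90.8) and 56.8 kb inside in intron 12 (90.8 and 89.3), the latter with the same summit base in both lists. A peak of 1530 bp in intron 7 had rank 59.0 in GFP- and no GFP+ partner. In turn, a peak in intron 1 had rank 38.6 in GFP+ against 1.0 in GFP-.

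Ldb3 held the largest peak of the group, a broad stretch with its summit 14.4 kb inside, in intron 5. It was 11040 bp long in GFP- and 10123 bp in GFP+, position 5 and position 11 of the whole lists, and 17.8% and 16.3% of the length of the gene, with the summit on the same base. A peak 43.9 kb inside also had the same summit in both lists and ranks of 83.4 and 86.0, and its window carries a MEF2 site next to a TEAD word. Of the 20 GFP- peaks of Ldb3, 4 had no GFP+ partner, including a peak of 967 bp in intron 12 with rank 74.3, among the 3 largest unpartnered GFP- peaks of the group. An unpartnered GFP+ peak 28.4 kb inside had rank 15.2. The peak 2.8 kb upstream (89.9 and 90.6) lies at a transcript start of the neighbouring gene Opn4.

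Csrp3 had 13 GFP- and 9 GFP+ peaks, and all 9 in GFP+ overlapped. At a start annotated 2.81 kb inside, in intron 1, ranks were 84.3 and 83.2, close to those of the first start. At the start 4.38 kb inside, only GFP- had a peak, of rank 14.5. The last exon carried a peak in both lists, with ranks of 82.2 and 73.1.

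Nebl, the longest gene of the group at 388 kb, had only 4 GFP- and 3 GFP+ peaks. Its largest peak lay 207 kb inside, with ranks of 78.8 in GFP- and 72.6 in GFP+. The 28-exon transcript Nebl-202 starts 271 kb inside, and a short peak of 229 bp and 234 bp lay on its first exon, with ranks of 51.0 and 46.6. The single unpartnered peak, 9.01 kb upstream, had rank 38.7 in GFP-. Myoz2 had, beside its start, a small peak in intron 3 with the same summit base in both lists over a MEF2 site, at rank 18.4 in GFP- and 5.5 in GFP+.

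Myom1 had 22 GFP- and 23 GFP+ peaks, and 21 and 23 of them overlapped. An upstream peak 8.90 kb before the start of the gene record had ranks of 76.8 in GFP- and 75.8 in GFP+, over a MEF2 site. That record begins at annotated starts of Myl12a and Myl12b, and the RefSeq start of Myom1 lies 16.9 kb further inside. The peak is thus further from the RefSeq start, and which gene it belongs to was not tested. Distances of the Myom1 peaks here are all from the start of the record. Intronic peaks 21.6 kb and 37.9 kb inside were shared in position but ranked lower in GFP+, at 78.0 against 43.8 and at 68.8 against 30.8. The peak at the start annotated 118 kb inside had ranks of 50.5 and 43.1. The unpartnered GFP- peak, 87.3 kb inside on exon 21, had rank 50.7.

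Myom2 had 16 GFP- and 14 GFP+ peaks, 12 of each overlapping. At the second of its further starts, 2.54 kb inside, the rank was 49.1 in GFP- and 69.8 in GFP+, but the GFP+ peak was 1321 bp long and spanned GFP- peaks of 593 bp and 701 bp. The merged region there had ranks of 73.1 and 68.9. Of the 3 largest unpartnered GFP- peaks of the group, Myom2 held those 15.3 kb inside (rank 75.6) and at the far end of the upstream window (rank 74.4), beside the Ldb3 peak in intron 12. Its exon 11 carried the largest unpartnered GFP+ peak of the group, at rank 29.5.

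Over the 9 genes, the 32 GFP- peaks without a GFP+ partner had a median rank of 13.4, and 23 of them ranked under 30. The 9 GFP+ peaks without a partner had a median rank of 6.4, and all 9 ranked under 30. Partnered peaks had median ranks of 62.9 and 55.5. Over the whole lists, unpartnered peaks at genes had medians of 24.2 and 16.8.

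In the sequence, 12 RefSeq promoter windows were found for 7 of the genes, and none was matched for Tcap and Myom2. A CArG box was found in 4 windows, at Ldb3 (in 2 overlapping windows that share the box), Myom1 and an internal start of Nebl 269 kb inside, beside 1.63% of 32851 promoter windows of the same length. The box of Myom1 lies within 100 bp of the summit of the peak at its RefSeq start in both lists, while the Nebl start had no peak within 250 bp in either. MEF2 sites were found in 2 windows, those of Ttn and Myoz2, beside 3.19% of all promoters. No window held the ETS word, which was found in 23.8% of all promoters. The GATA word was found in 3 windows, the TEAD word in 2 and the E-box word in 1, beside 11.2%, 14.7% and 16.3% of all promoters.

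Around the summits of peaks away from gene starts, a MEF2 site was found at 10 of 126 windows in GFP- (7.94%, 4.37 to 14.0) and 9 of 109 in GFP+ (8.26%, 4.40 to 15.0), beside 5.47% and 5.91% at peaks of all genes. The GATA word was found at 15.9% (interval from 10.5 to 23.2) and 15.6% (9.97 to 23.6), beside 9.82% and 9.83%. Within 200 bp of the summit, however, the shares were 21.4% (15.2 to 29.4) and 22.0% (15.3 to 30.7), beside 18.9% and 18.6%, which lie inside those intervals. The TEAD word was found at 16.7% (11.2 to 24.1) and 21.1% (14.5 to 29.7), beside 14.4% and 13.6%, and the E-box word at 19.8% (13.8 to 27.7) and 12.8% (7.81 to 20.4), beside 23.3% and 19.8%. The ETS word was found at 9.52% (5.53 to 15.9) and 11.9% (7.10 to 19.3), beside 15.7% and 16.5%. A CArG box was found at 2.38% (0.813 to 6.77) in GFP- and 1.83% (0.505 to 6.44) in GFP+, beside 1.18% and 1.12%. For MEF2 and the CArG box, the shares at all genes lay inside the intervals of the group in both lists. Most of these windows are shared, so the values of the lists are not independent of each other. A word in a window is a description of its letters, not of a bound factor.

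The other genes of the Z-disc and M-band were counted at their starts in the same way. Of 31 other Z-disc and M-band genes, 25 had a start peak in GFP- and the same number in GFP+, all 25 of them in both, with a median difference of 2.24 points lower in GFP+. Within 5 points were 18 of the 25, 7 were lower by more than 5 and 0 were higher. Flnc, the gene of filamin C, had ranks of 99.9 and 99.2, and Bag3, a chaperone partner of the Z-disc, 98.2 and 98.1, while Trim63, a ubiquitin ligase of muscle, had 89.3 and 73.8, or 89.1 and 81.4 on its merged region. Of 13 paralogs of the 9 genes, 10 had a start peak in both lists, with a median difference of 1.90 points lower in GFP+. In a separate list of 6 genes typical of skeletal muscle, which holds Myot beside paralogs, 2 had a start peak, Actn3 with 88.4 and 86.8 and Neb, the gene of nebulin, with 51.1 and 9.7. Myoz1, Myoz3, Myom3 and Myot had none in either list.

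Of 7 thin filament genes, all had start peaks in both lists, with a median difference of 2.50 points lower in GFP+ (0.386 lower on merged regions), and Actc1, the cardiac actin gene, had ranks of 99.9 and 88.5 on peaks of unequal length and of 99.9 in both lists on its merged region. Of 7 thick filament genes, 5 had start peaks in both lists, and Myl3 had it in GFP- alone, at rank 86.5. Its merged region also held a GFP+ peak, with ranks of 86.2 in GFP- and 63.3 in GFP+. Myl7, the atrial light chain gene, had no start peak. For the 8 endothelial marker genes with a start peak in either list, counting a missing peak as rank 0, the median was 50.7 points higher in GFP+. For the 6 fibroblast genes it was 74.2 points lower, and for 7 pericyte and smooth muscle genes 13.4 points lower. Of 6 macrophage genes, 2 had a start peak in GFP- and 1 in GFP+, and of 8 skeletal muscle genes 2 had it in both lists.

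**Figure D5:**
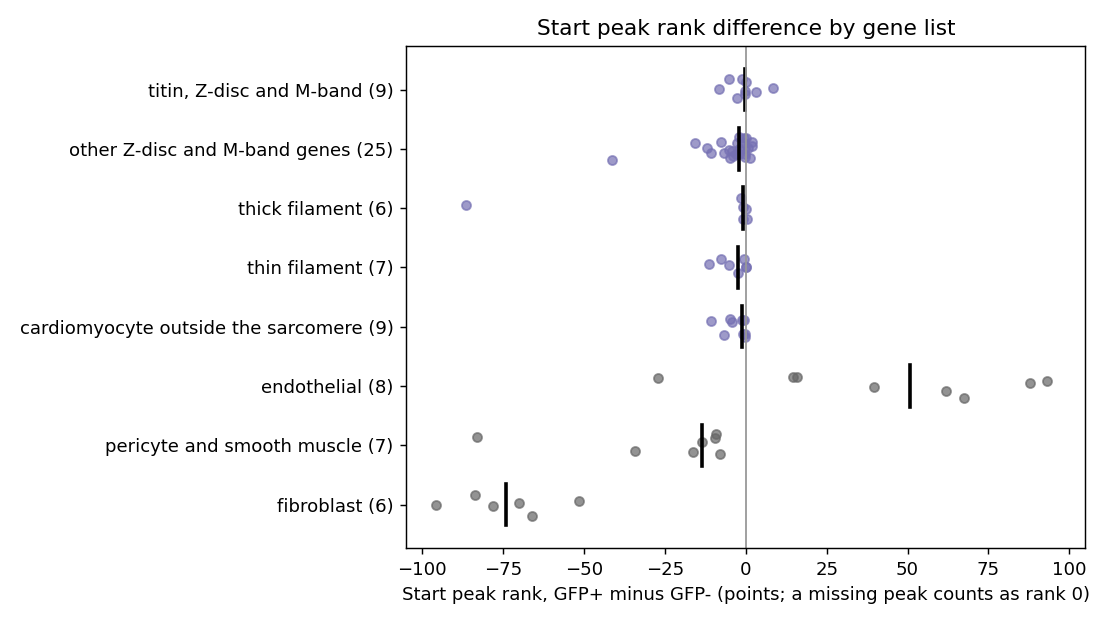
Difference in start peak rank, GFP+ minus GFP-, for every gene of a list with a start peak in either list (points) and the median of the list (black bar), with a missing peak counted as rank 0. The 9 titin, Z-disc and M-band genes lie between 8.27 points lower and 8.44 points higher, endothelial genes lie mostly to the right and fibroblast genes to the left.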

How the data were processed

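ATAC-Seq was measured in 2 GFP- and 2 GFP+ libraries, grouped by the cell type in their labels. Reads were trimmed (fastp), aligned to mm10 (Bowtie2, 2.3.5.1 in the submitters' processing notes), and the authors then filtered them with SAMtools, removed duplicates with Picard, downsampled, and called peaks with Genrich on both replicates together, with Y and mitochondrial reads left out. Downsampling limits effects of unequal depth, but the lists keep no depth, so precision is known only as counting error. The deposited area is a signal summed over a peak. The deposited score is area per bp, limited to 1000, and was not used. The authors also deposited the summit's −log10 p-value, which served for an alternative ranking.

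Ranks, overlaps (at least 1 bp), coverage and words were computed with pysam 0.24.0, scipy 1.17.1, pandas 2.3.3 and numpy 2.4.6 under Python 3.11.15, and matplotlib 3.10.9 drew the figures. A gene start is the 5' end of its GENCODE M21 record. A peak was called exonic when its summit lay on an exon of any annotated transcript. Exon and intron numbers follow the transcript of largest span, except where another is named. In simulated peaks, 0 of 1200 overlap flags and 0 of 300 coverages differed from direct counts. All 9 genes were described with their start peak, largest peak, peaks at other annotated starts and, per list, the 3 largest peaks without overlap, and other genes came from fixed lists, of which 1 symbol was not matched. The genes, lists and words were chosen with earlier results of these data known. No test was made between populations. Alternatives changed the start window and definition, the ranking, the overlap, the weakest peaks, the upstream window, the body and the word window. The merged regions and RefSeq starts were added after the data were seen. The sequence and values of 1 peak are not reported here.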

Additional observations from a re-analysis of the deposited data

How the results depend on the processing

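Because the lists are pooled and the values have no test, a share was held to have moved when it left its Wilson interval, and a rank difference or coverage when it moved by more than 5 points. The 9 start peaks in each list were found under all 3 alternatives (a window of 1000 bp, any annotated transcript start, the lowest 25% of each list left out), and the median rank difference stayed between -2.75 and -0.279. The share of GFP- peaks that overlapped GFP+ was 60.3% when 50% of both peaks had to overlap, 83.2% without the lowest 25% of both lists, and 90.1% without the lowest 25% of GFP- alone, an alternative added after the data were seen. For GFP+ peaks it was 68.9% at 50% overlap and 97.8% without the lowest 25% of GFP+ alone. None of these alternative shares was computed for all genes, so they describe the settings and not a trait of the 9 genes. Within 200 bp of the summit, the TEAD word share rose to 27.8% (20.7 to 36.2) in GFP- and 33.0% (24.9 to 42.3) in GFP+, beside 24.2% and 23.3% at all genes. The E-box share in GFP+ rose to 22.9% (29.95% at all genes), since the window is longer. The ETS share there was 15.9% (10.5 to 23.2) in GFP- and 19.3% (13.0 to 27.7) in GFP+, beside 26.5% and 27.6% at all genes. The share at all genes lay outside the interval for TEAD in GFP+ and for ETS in GFP-. The sign of a rank difference of over 5 points changed for Ttn, to -1.75 by area per bp and -1.01 on merged regions, and by area per bp for Myoz2, to 37.9, and Nebl, to 6.94. By area per bp, Actn2 (-7.41), Ldb3 (-11.6), Myom1 (-6.53) and Myom2 (13.1) also moved by more than 5 points. Median coverage moved by less than 5 points without the first 1000 bp of the body or without the lowest 25%, but Csrp3 in GFP- went to 30.6% without the lowest 25%, and Myoz2 in GFP- to 2.12% without the first 1000 bp. Leaving out a replicate could not be run on pooled lists. No paired analysis was possible because each population has 1 list called from both replicates together.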
